A study of Mus musculus with 6 samples.

Results

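The destruction complex of the canonical Wnt pathway was described in bulk RNA-seq of mouse cochlea through 10 genes: the scaffolds *Axin1*, *Axin2* and *Apc*, the kinases *Gsk3b* and *Csnk1a1*, the ubiquitin ligase adaptor *Btrc*, the substrate *Ctnnb1* (β-catenin), and *Lef1*, *Lgr5* and *Nkd1*, which are read as partners or targets of the pathway. They were taken by gene symbol and hold 71 of the 128603 transcripts listed, under 10 of 51802 symbols. The set was chosen by the *Axin1* transcript values, which had already been seen to differ between the genotypes in these same samples, so all *Axin1* values are given as a description, with no test. Both groups were 2 months old on the strain background that the labels call C57/BL6J, with 3 wildtype samples (replicates 3, 4 and 5) and 3 *Pou4f3(Δ/+)* samples (replicates 1, 2 and 3) that were littermates. *Pou4f3(Δ/+)* mice carry on one allele a knock-in of the small frameshift deletion that causes the human deafness DFNA15 and keep a wildtype allele (the knock-in was made in W4 embryonic stem cells with a loxP-flanked Neo cassette), and *Pou4f3* is a hair cell transcription factor. Each sample was total RNA of cochlea, with hair cells, supporting cells, stria, nerve, bone and blood cells together, so fewer cells of a type and less RNA per cell cannot be told apart. It was not stated whether each sample came from a single animal, so p-values measure the spread between these samples.

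In the canonical Wnt pathway, AXIN and APC hold β-catenin next to casein kinase 1α and GSK3β, which phosphorylate it in turn, and the ligase adaptor β-TrCP then recognises it and sends it to the proteasome. When a Wnt ligand binds Frizzled and LRP receptors, AXIN is drawn to the membrane, the complex stops working, and β-catenin enters the nucleus and acts with TCF and LEF factors. *Axin2*, *Nkd1* and *Lgr5* are common target genes of this signal, and in the cochlea *Lgr5* marks a group of supporting cells that can act as hair cell progenitors early in life.

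*Axin1* (ENSMUSG00000024182) lies on the plus strand at chr17:26138688-26195811 in GRCm38, and 5 of its transcripts were listed. Its 3 expressed transcripts differ at an optional coding exon and at both ends. The longest, ENSMUST00000074370, holds exon 9 at chr17:26192516-26192623, with 108 coding bases or 36 codons. ENSMUST00000118904 and ENSMUST00000163421 skip it and join the neighbouring exons. The coding sequence on either side is shown because this exon is the only coding difference among them. The exon is in capitals and 12 coding bases of each neighbouring exon are in lower case, read 5′ to 3′ from the GENCODE M21 transcripts on GRCm38.
ENSMUST00000074370: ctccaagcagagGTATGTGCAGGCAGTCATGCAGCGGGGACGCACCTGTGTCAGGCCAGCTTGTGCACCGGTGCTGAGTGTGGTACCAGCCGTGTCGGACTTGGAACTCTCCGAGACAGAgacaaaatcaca
ENSMUST00000118904 and ENSMUST00000163421: ctccaagcagaggacaaaatcaca

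The coding intervals of ENSMUST00000118904 and ENSMUST00000163421 were identical, at 2496 bases against 2604 bases in ENSMUST00000074370. These forms therefore encode the same protein and are told apart by non-coding ends alone. They shared 2758 exonic bases, which is 97.4% of ENSMUST00000118904 and 95.4% of ENSMUST00000163421. ENSMUST00000118904 starts at base 26138828 and removes an intron of 126 bases at chr17:26138903-26139028, ahead of the first coding base at 26142684. ENSMUST00000163421 starts at base 26138950, inside the stretch that ENSMUST00000118904 removes, and ends 3′ of it, at 26195294 against 26195241. That intron is the only feature that belongs to ENSMUST00000118904 alone among the listed transcripts, since each of its bases is also in another one, and ENSMUST00000163421 has neither a base nor an intron of its own. By contrast, ENSMUST00000074370 has 812 bases in no other listed transcript.

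**Figure D1:**
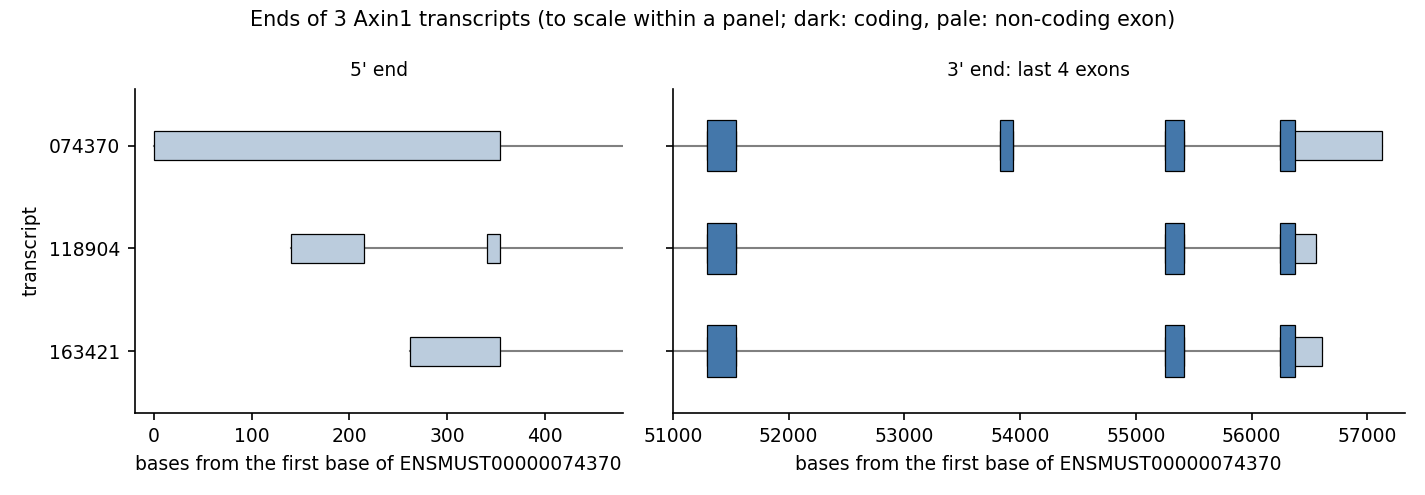
Models of the 3 expressed *Axin1* transcripts at their 5′ end (left) and at their last exons (right), with the distance in bases from the first base of ENSMUST00000074370 on the horizontal axis, dark boxes for coding and pale boxes for non-coding exon, labelled by the last digits of each identifier. The exon of 108 bases is present in the top model and absent from the 2 below, which differ from each other only in their pale ends.

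The *Axin1* gene as a whole differed between genotypes by less than the spread of the samples. Among its transcripts, ENSMUST00000118904 was lower and ENSMUST00000163421 higher in *Pou4f3(Δ/+)*. FPKM is a level per length of transcript and per depth of the library, and a gene's FPKM here is the sum over its transcripts. *Axin1* was at 15.6, 15.7 and 16.1 FPKM in wildtype replicates 3, 4 and 5 and at 16.3, 15.2 and 15.6 FPKM in *Pou4f3(Δ/+)* replicates 1, 2 and 3. The groups overlapped, and the difference of *Pou4f3(Δ/+)* from wildtype was 0.01 on the log2 scale with a standard error (SE) of 0.07.

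ENSMUST00000118904 was at 3.69, 3.47 and 3.20 FPKM in the wildtype samples, from 180, 141 and 156 expected counts (estimated fragments, which need not be whole). In the *Pou4f3(Δ/+)* samples it was at 0, 0.02 and 0.01 FPKM, from 0.201, 0.766 and 0.260 counts. Every wildtype sample held it and every *Pou4f3(Δ/+)* sample was under the 3 counts taken as the floor of detection, which is worth 0.0598 to 0.0741 FPKM in these libraries. The wildtype mean was 159 ± 20.1 counts (SD, n = 3), and the lowest wildtype sample was at least 44.3-fold higher in FPKM than the highest floor of the *Pou4f3(Δ/+)* libraries. The floor covers counting error only. It made up 21.9% ± 1.86 (SD, n = 3) of the *Axin1* FPKM of wildtype samples, and 0.0651% ± 0.0657 of that of *Pou4f3(Δ/+)* samples.

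ENSMUST00000163421, which encodes the same protein, was higher in *Pou4f3(Δ/+)*. It was at 4.64, 4.69 and 6.10 FPKM in the wildtype samples and at 9.25, 7.41 and 7.93 FPKM in the *Pou4f3(Δ/+)* samples. The groups did not overlap, and the means were 5.14 ± 0.829 and 8.20 ± 0.949 FPKM (SD, n = 3), less than 2-fold apart. Non-overlap at any fold was not counted over all transcripts, and among gene sums in FPKM it held for 12.1%. The expected counts of replicates in the same order were 231, 194 and 303 against 473, 332 and 336. It made up 32.6% ± 4.72 (SD, n = 3) of the *Axin1* FPKM of wildtype samples, and 52.0% ± 4.15 of that of *Pou4f3(Δ/+)* samples.

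The 2 forms without the exon, added together, did not stand apart between the genotypes. Their sum was 8.33, 8.16 and 9.30 FPKM in the wildtype samples and 9.25, 7.43 and 7.94 FPKM in the *Pou4f3(Δ/+)* samples. Together they held 54.5% ± 3.07 (SD, n = 3) of the *Axin1* FPKM of wildtype samples, against 52.1% ± 4.08 for *Pou4f3(Δ/+)*. The form with the exon was at 7.29, 7.49 and 6.75 FPKM in wildtype and at 7.08, 7.80 and 7.60 FPKM in *Pou4f3(Δ/+)*. These groups overlapped as well, with shares of 45.5% ± 3.07 and 47.7% ± 4.005. The difference between genotypes thus lay in how fragments were divided between 2 transcripts with 1 coding sequence, and the division between coding sequences with and without the exon was alike within the spread of the samples. The 2 forms share all but the bases and the intron given above, so their separate values rest on how the estimation program divided shared fragments, and the part of that step in the result was not tested.

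**Figure D2:**
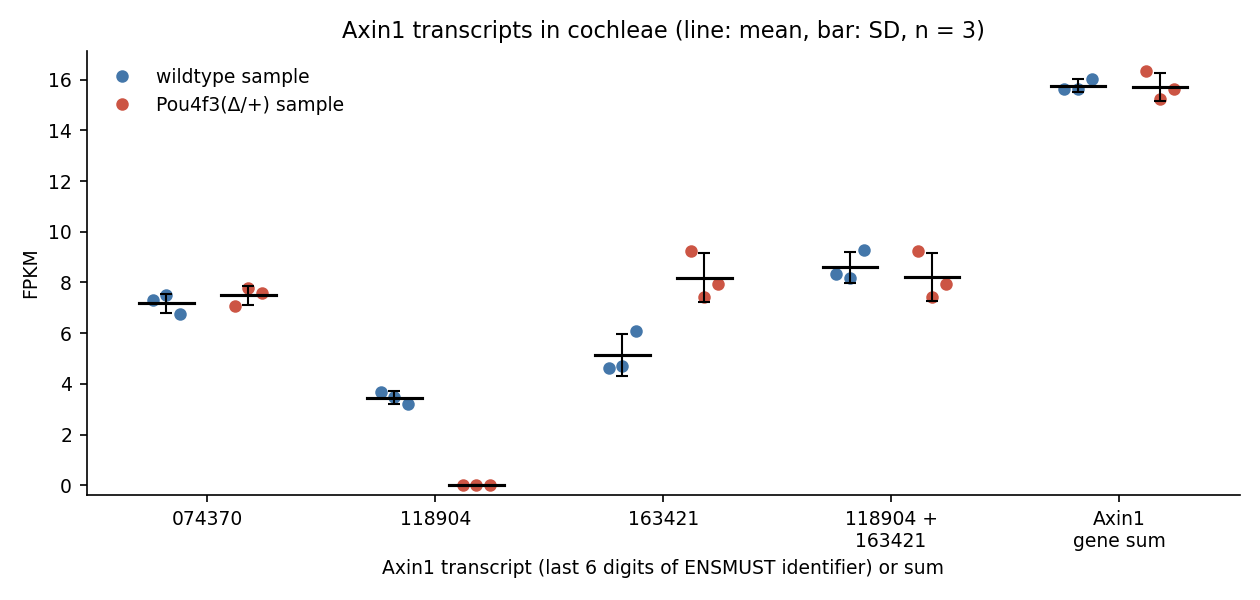
FPKM of the 3 expressed *Axin1* transcripts, of the sum of both forms without the exon, and of the gene, with a point per sample (wildtype left, *Pou4f3(Δ/+)* right in each pair), a line at the mean and a bar of 1 SD (n = 3). ENSMUST00000118904 lies at 3.20 to 3.69 FPKM in wildtype and at 0 to 0.02 in *Pou4f3(Δ/+)*, whereas the sums to its right overlap between the groups.

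The remaining *Axin1* transcripts carried almost nothing. ENSMUST00000168282, annotated as protein coding, was listed at 0 in 5 samples and at 0.09 FPKM (0.620 counts) in *Pou4f3(Δ/+)* replicate 3, and ENSMUST00000169268, a retained intron, was listed at 0 in all 6. A transcript with a wildtype mean of at least 50 counts and under 3 counts in every *Pou4f3(Δ/+)* sample, as ENSMUST00000118904 was, occurred 49 times among 23018 transcripts (0.213%). The reverse pattern, at 50 counts in *Pou4f3(Δ/+)* and under 3 in every wildtype sample, also occurred 49 times, among 22926 transcripts (0.214%). Across the 6 samples, the genes whose log2 CPM (counts scaled to library size) was most like that of the *Axin1* gene were Gm42463 (Pearson's r 0.989), *Zcchc7* (0.976), *Rnf121* (0.974), *Lysmd3* (0.974) and *Tle1* (0.972), a corepressor of TCF factors. Of 17135 genes compared, 67 reached 0.9 with so few samples, all of which share their library sizes and genotype split.

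The other 9 genes were compared between genotypes as gene sums, with edgeR's quasi-likelihood test and Benjamini-Hochberg adjustment over all 17136 genes tested. None of the 9 was called at an adjusted p of 0.05, as was none of all genes (0%). None had an unadjusted p under 0.05, against 7.64% of all genes, and DESeq2 called 0 of the 9 against 0.374% of all genes. The size of the differences was small, from -0.27 to 0.31 on the log2 scale, and with *Axin1* included 4 of the 10 were higher and 6 lower in *Pou4f3(Δ/+)*, with a median of -0.04 against -0.00 over all genes. In 2 of the 10, *Csnk1a1* and *Nkd1*, the groups did not overlap in log2 CPM, which held for 12.7% of all genes (6.07% with *Pou4f3(Δ/+)* above and 6.59% with it below).

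Of the scaffolds, *Axin2* (chr11:108920349-108950783), both a component of the complex and a standard readout of Wnt signalling, was at 5.85, 5.64 and 6.41 FPKM in the wildtype samples and at 6.57, 5.43 and 5.59 FPKM in the *Pou4f3(Δ/+)* samples. The groups overlapped from end to end in FPKM. *Pou4f3(Δ/+)* replicate 1 drew 1.21 FPKM of its value from ENSMUST00000106711, a transcript singled out after its values were seen and at 0.03 FPKM or less in the other samples. In the log2 CPM behind the fit, *Pou4f3(Δ/+)* replicates 2 and 3, at 4.12 and 4.30, lay below the wildtype range of 4.35 to 4.48, and replicate 1, at 4.35, lay at its lower end. The fitted difference was -0.14 (SE 0.11, edgeR adjusted p = 0.749). *Apc* (chr18:34220924-34322552), which binds both AXIN and β-catenin, was at 16.2, 18.9 and 15.6 FPKM in wildtype and at 18.3, 13.6 and 18.1 FPKM in *Pou4f3(Δ/+)*, where replicate 2 was the lowest of all 6. Its difference was -0.02 (SE 0.10, edgeR adjusted p = 0.969), and the sign turned to 0.07 without *Pou4f3(Δ/+)* replicate 2 and to 0.04 without wildtype replicate 4.

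The kinases and the ligase adaptor differed little. *Gsk3b* (chr16:38089001-38246084), which phosphorylates β-catenin after priming, was at 21.7, 23.3 and 25.03 FPKM in wildtype and 22.2, 20.1 and 21.7 FPKM in *Pou4f3(Δ/+)*, and the groups overlapped (difference -0.08, SE 0.08, edgeR adjusted p = 0.808). *Csnk1a1* (chr18:61555274-61590061), the priming kinase, was at 89.6, 95.6 and 94.0 FPKM in wildtype and at 101, 98.4 and 101 FPKM in *Pou4f3(Δ/+)*. Every *Pou4f3(Δ/+)* sample was above every wildtype sample, by a fitted 1.07-fold, and the difference of 0.10 (SE 0.08) had an edgeR adjusted p of 0.740. *Btrc* (chr19:45363734-45530013), which encodes β-TrCP, was at 8.09, 8.42 and 7.75 FPKM in wildtype and at 8.60, 7.95 and 9.77 FPKM in *Pou4f3(Δ/+)*. Its groups overlapped (difference 0.12, SE 0.09, edgeR adjusted p = 0.751).

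*Ctnnb1* (chr9:120929216-120960507) encodes β-catenin, which the complex controls as a protein and which also joins cadherins at cell junctions. It was at 221, 223 and 243 FPKM in wildtype and at 204, 201 and 231 FPKM in *Pou4f3(Δ/+)*, where replicate 3 lay within the wildtype range and the other 2 below it (difference -0.12, SE 0.09, edgeR adjusted p = 0.745). *Lgr5* (chr10:115450311-115587780, minus strand), the R-spondin receptor, was at 7.37, 6.77 and 7.85 FPKM in wildtype and at 7.02, 6.53 and 6.81 FPKM in *Pou4f3(Δ/+)*, with overlap (difference -0.06, SE 0.08, edgeR adjusted p = 0.872).

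*Nkd1* (chr8:88521354-88594884), a target gene whose product binds Dishevelled and damps the signal, was at 5.72, 4.89 and 4.75 FPKM in wildtype and at 4.66, 3.70 and 4.01 FPKM in *Pou4f3(Δ/+)*. All 3 *Pou4f3(Δ/+)* samples were below the wildtype samples, the nearest pair by less than 0.1 FPKM. The fitted difference was -0.27 (SE 0.14), or 0.827-fold, with an unadjusted p of 0.0899 and an edgeR adjusted p of 0.661. It kept its sign under each of 14 alternatives, from -0.39 to -0.19, with adjusted p from 0.473 to 1.00.

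*Lef1* (chr3:131110471-131224356), a DNA-binding partner of β-catenin that lymphoid cells also make, had a fitted difference that rested on few libraries. It was at 2.77, 4.23 and 4.34 FPKM in wildtype, from 123, 172 and 221 counts, and at 5.29, 4.64 and 3.42 FPKM in *Pou4f3(Δ/+)*, from 281, 200 and 158 counts. *Pou4f3(Δ/+)* replicates 1 and 2 were the highest of the 6 and replicate 3 was within the wildtype range. The difference was 0.31 (SE 0.24, edgeR adjusted p = 0.751). With 1 library left out it ranged from 0.09 without wildtype replicate 3, the lowest library, to 0.47 without wildtype replicate 5. It was 0.15, 0.32 and 0.45 without *Pou4f3(Δ/+)* replicates 1, 2 and 3 in turn, 0.40 without wildtype replicate 4, and -0.01 when *Pou4f3(Δ/+)* replicates 1 and 2 were both left out. *Pou4f3(Δ/+)* replicates 1 and 2 stood apart in the summed FPKM of lymphoid markers. The summed FPKM of 10 B lineage markers was 139 to 168 in wildtype, 284 and 328 in *Pou4f3(Δ/+)* replicates 1 and 2, and 177 in replicate 3. All 10 of these markers were higher in *Pou4f3(Δ/+)* and none was listed at 0. Likewise the summed FPKM of 6 T cell markers was 14.7 to 16.99 in wildtype, 31.1 and 36.0 in replicates 1 and 2, and 13.8 in replicate 3. By the fitted difference 6 of 6 were higher, and none was at 0. *Cd4* did not have this pattern, at 2.57 to 2.65 FPKM in wildtype and 3.13, 2.56 and 2.59 FPKM in *Pou4f3(Δ/+)* replicates 1, 2 and 3. *Tcf7*, also in the T cell list, is a gene of the wider Wnt list below as well. The part of lymphoid cells in the *Lef1* result was not tested. The genes most like *Lef1* over the 6 samples were Gm29216 (Pearson's r 0.987), *Usp53* (0.986), Gm43570 (0.984), *Mex3b* (0.982) and *Mrto4* (0.980), with 112 of 17135 at or over 0.9.

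By mean level over the 6 samples, the order was *Ctnnb1*, *Csnk1a1*, *Gsk3b*, *Apc*, *Axin1*, *Btrc*, *Lgr5*, *Axin2*, *Nkd1* and *Lef1*, from 220 ± 16.2 to 4.12 ± 0.896 FPKM (SD, n = 6). *Ctnnb1*, *Csnk1a1* and *Gsk3b* each stood clear of the next gene in every sample, as did *Axin1* of *Btrc*. In 1 form each of *Apc* and *Btrc*, however, FPKM did not match the value recomputed from count, spliced length and depth. The places of *Apc* and *Btrc* in this order, and their transcript shares below, rest on those values. In summed counts *Axin1* and *Btrc* were alike, at 739 to 947 and 761 to 962. The ranges of *Apc* and *Axin1* overlapped, as did those of each neighbouring pair from *Btrc* down to *Lef1*. Some of these genes share exonic bases with a gene on the opposite strand, and strandedness of the libraries is not given in the sources used here: *Btrc* with the pseudogene Gm6807 (235 bases, 76.0 to 131 counts), *Ctnnb1* with *Ulk4* (759 bases, 12.01 to 47.0 counts), *Lef1* with Gm43352 (1208 bases, 6.06 to 21.3 counts) and *Axin2* with Gm11670 (209 bases, 0 counts). Fragments from these stretches cannot be assigned with certainty.

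**Figure D3:**
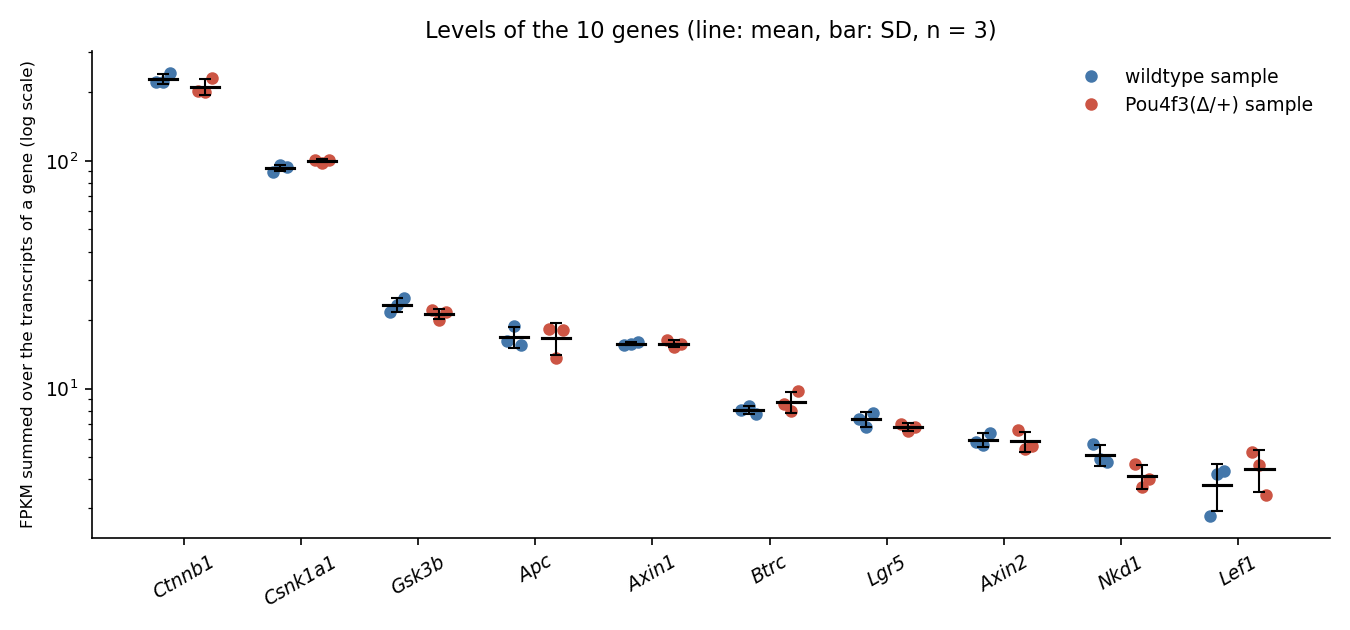
Level of each of the 10 genes as summed FPKM on a log axis, with a point per sample (wildtype left, *Pou4f3(Δ/+)* right), a line at the mean and a bar of 1 SD (n = 3). The groups overlap in 8 of the 10 genes, and *Csnk1a1* (98.4 to 101 against 89.6 to 95.6 FPKM) and *Nkd1* (3.70 to 4.66 against 4.75 to 5.72 FPKM) do not.

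Below the gene level, the other 9 genes hold 66 listed transcripts, of which 29 passed the filter on low counts. Of these, 12 were higher and 17 lower in *Pou4f3(Δ/+)*, with a median difference of -0.05 on the log2 scale against 0.00 over all 38347 transcripts tested. None was called by edgeR (0% of all transcripts) or by DESeq2 (0.340%), and 2 had an unadjusted p under 0.05 (4.14% of all transcripts, 1.95% higher and 2.19% lower), both lower. Among all 71 transcripts, 15 were never above 0.

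A form of *Ctnnb1* was the only transcript besides the *Axin1* form to pass a rule of more than 2-fold between the group means, at least 1 FPKM in the higher group and no overlap. Without *Axin1*, whose values chose the set, this is 1 of 22 eligible transcripts, lower in *Pou4f3(Δ/+)*, where the rule took 2.60% of 30611 eligible transcripts overall (1.25% lower and 1.35% higher). It is the retained intron ENSMUST00000126633 (chr9:120955125-120955841, 494 spliced bases of which 23 are in no other listed transcript). It was at 5.95, 8.48 and 12.1 FPKM in wildtype, from 50.7, 59.9 and 103 counts, and at 0.80, 2.24 and 0 FPKM in *Pou4f3(Δ/+)*, from 7.03, 17.2 and 0 counts. The wildtype samples were all above the *Pou4f3(Δ/+)* samples, and the fitted difference was -3.11 (SE 1.05, edgeR adjusted p = 0.999). This transcript is also on the study's own list of changed transcripts, so it is no independent sign of change in *Ctnnb1*. It held 3.83% ± 1.15 (SD, n = 3) of the *Ctnnb1* FPKM of wildtype samples, against 0.503% ± 0.566 for *Pou4f3(Δ/+)*, while the full-length coding form ENSMUST00000007130 held 81.1% ± 7.33 and 79.7% ± 7.19.

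The other transcript with an unadjusted p under 0.05, named after its values were seen, was ENSMUST00000114750 of *Gsk3b*. It codes for 1299 bases against 1260 in the main form ENSMUST00000023507, and was at 2.43, 3.75 and 2.62 FPKM in wildtype and 1.57, 1.90 and 1.29 FPKM in *Pou4f3(Δ/+)*. The groups did not overlap, a pattern not counted over all transcripts, and the difference of -0.88 (SE 0.30) had an edgeR adjusted p of 0.999. Its share of the *Gsk3b* FPKM was 12.6% ± 3.08 for wildtype, against 7.49% ± 1.79 for *Pou4f3(Δ/+)*, and that of the main form was 85.6% ± 2.57 and 89.4% ± 2.81 (SD, n = 3).

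The leading transcript of each gene other than *Axin1* held shares that overlapped between the genotypes in 8 of 9 genes. The exception was *Lef1*, and non-overlap of this share was found in 8.85% of the 12447 genes with more than 1 transcript above 0. ENSMUST00000115781 held 65.7% ± 11.0 of *Apc* in wildtype and 65.9% ± 11.7 in *Pou4f3(Δ/+)*, and ENSMUST00000165123 held 48.9% ± 4.93 and 49.2% ± 1.97 of *Csnk1a1*. ENSMUST00000065601 held 92.4% ± 10.7 and 96.3% ± 3.51 of *Btrc*, and ENSMUST00000020350 held 81.6% ± 6.94 and 84.5% ± 1.39 of *Lgr5*. For the target genes, ENSMUST00000211113 held 55.5% ± 8.97 and 53.7% ± 4.79 of *Nkd1*. Each of these differences was smaller than the larger of its SDs. ENSMUST00000052915 held 74.6% ± 4.72 of *Axin2* in wildtype and 66.0% ± 9.99 in *Pou4f3(Δ/+)*, where the lowest sample was at 56.5% and the highest at 76.4%, inside the wildtype range. ENSMUST00000029611 held 41.6% ± 6.38 of *Lef1* in wildtype, against 53.4% ± 5.002 for *Pou4f3(Δ/+)* (SD, n = 3), each sample of which was above each wildtype sample, the nearest pair being 47.8% in both.

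The wider pathway was then read from a list of 111 genes by role, all of them listed and 100 tested. Leaving out *Axin1*, 0 of 99 were called by edgeR (0% of all genes) and 0 by DESeq2 (0.374%). At an unadjusted p under 0.05, 1 gene was higher (3.50% of all genes) and 6 were lower (4.14%). Over all 100, 42 were higher and 58 lower in *Pou4f3(Δ/+)*, and the median difference was -0.02 on the log2 scale.

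Of the Wnt ligands and the proteins that export them, 14 of 21 were tested, 5 higher and 9 lower (median -0.07), and none reached an unadjusted p under 0.05. Of the receptors and transducers, 14 of 15 were tested, 5 higher and 9 lower (median -0.02). *Fzd5*, a Frizzled receptor, was at 4.82, 4.75 and 4.94 FPKM in wildtype and at 4.10, 3.41 and 4.34 FPKM in *Pou4f3(Δ/+)*, all below wildtype, and had a difference of -0.29 (SE 0.10, unadjusted p = 0.0223, edgeR adjusted p = 0.643). The R-spondin module, in which R-spondins and LGR receptors hold back the ligases RNF43 and ZNRF3 that remove Frizzled receptors from the membrane, had 2 genes higher and 6 lower of 8 tested (median -0.12), none at an unadjusted p under 0.05.

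The destruction complex and its regulators, the role to which most of the 10 genes belong, had 13 genes higher and 11 lower of 24 (median 0.00). *Rnf146*, a ubiquitin ligase that removes tankyrase-modified AXIN, was at 26.6, 25.8 and 28.1 FPKM in wildtype and at 33.3, 32.4 and 26.9 FPKM in *Pou4f3(Δ/+)*. Replicates 1 and 2 were above and replicate 3 within the wildtype range, with a difference of 0.24 (SE 0.10, unadjusted p = 0.0471, edgeR adjusted p = 0.643). Replicates 1 and 2 also had the higher summed FPKM of B lineage and T cell markers, and the part of those cells in the *Rnf146* values was not tested. The nuclear partners of β-catenin had 8 genes higher and 9 lower of 17 (median -0.00). Among them *Aes*, a short Groucho-family protein, was at 293, 268 and 276 FPKM in wildtype and at 226, 242 and 252 FPKM in *Pou4f3(Δ/+)*, without overlap (difference -0.21, SE 0.08, unadjusted p = 0.0245, edgeR adjusted p = 0.643).

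Secreted inhibitors and their co-receptors had 5 genes higher and 9 lower of 14 tested (median -0.10). At an unadjusted p under 0.05, 3 of the 14 were lower, where 4.14% of all genes were, and no test set this role against the others. *Wif1*, which binds Wnt ligands outside the cell, was at 15.4, 15.7 and 17.9 FPKM in wildtype and at 11.4, 9.13 and 14.2 FPKM in *Pou4f3(Δ/+)*. All 3 *Pou4f3(Δ/+)* samples were below wildtype, with a difference of -0.49 (SE 0.16, unadjusted p = 0.0142, edgeR adjusted p = 0.643). *Sfrp2*, a secreted Frizzled-related protein, was at 2.94, 2.02 and 3.46 FPKM in wildtype and at 1.07, 0.90 and 2.34 FPKM in *Pou4f3(Δ/+)*, with overlap through replicate 3 (difference -0.95, SE 0.37, unadjusted p = 0.0313, edgeR adjusted p = 0.643, and a difference of -1.46 without that replicate). *Kremen1*, a receptor for Dickkopf proteins, was at 13.3, 14.1 and 13.1 FPKM in wildtype and at 11.5, 9.96 and 12.6 FPKM in *Pou4f3(Δ/+)*, without overlap (difference -0.26, SE 0.09, unadjusted p = 0.0197, edgeR adjusted p = 0.643). In each of these 3 genes replicate 3 was the *Pou4f3(Δ/+)* sample nearest to wildtype and replicate 2 the farthest. The same order held in the sum of 4 markers of the stria vascularis, whose FPKM was 122 to 124 in wildtype and 95.5, 75.5 and 109 in *Pou4f3(Δ/+)* replicates 1, 2 and 3, with none at 0. Of the 4, *Kcnq1*, *Kcne1* and *Kcnj10* each had this order, and *Esrrb* did not, at 18.5 to 25.1 FPKM in wildtype and 26.1, 20.4 and 20.2 FPKM in *Pou4f3(Δ/+)* replicates 1, 2 and 3. Replicate 2 was also the lowest and replicate 3 the highest of the *Pou4f3(Δ/+)* samples in the summed FPKM of 3 other lists, at 304, 286 and 413 for supporting cells (355 to 423 in wildtype), 371, 337 and 450.0 for neurons (394 to 446) and 637, 624 and 887 for Schwann cells (748 to 908). The sums rest mostly on their most abundant markers, and *Sox2*, at 3.54, 5.68 and 5.27 FPKM, *Otog*, at 2.86, 4.76 and 4.48 FPKM, and *Mbp*, at 322, 355 and 441 FPKM, were lowest in replicate 1. The summed FPKM of hair cell markers, at 39.7, 48.0 and 43.7, of bone markers, at 651, 747 and 596, and of neutrophil markers, at 12454, 14858 and 14817, had replicate 2 as the highest of the *Pou4f3(Δ/+)* samples, against wildtype ranges of 45.8 to 46.3, 669 to 902 and 12133 to 14238. The part of these cell types in the values of the inhibitors was not tested.

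Without *Pou4f3(Δ/+)* replicates 1 and 2 the differences of 6 genes named above were smaller, at -0.17 for *Fzd5*, 0.03 for *Rnf146*, -0.13 for *Aes*, -0.18 for *Wif1*, -0.25 for *Sfrp2* and -0.13 for *Kremen1*.

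Target genes of the pathway had 7 higher and 10 lower of 17 (median -0.06). *Ccnd1*, which encodes the cell cycle regulator cyclin D1, was at 10.8, 12.8 and 13.8 FPKM in wildtype and at 10.3, 8.74 and 9.58 FPKM in *Pou4f3(Δ/+)*. All 3 were below wildtype, with a difference of -0.36 (SE 0.11, unadjusted p = 0.0110, edgeR adjusted p = 0.643). The more specific targets among the 10 genes, *Axin2*, *Nkd1*, *Lgr5* and *Lef1*, had differences of -0.14, -0.27, -0.06 and 0.31, with both signs among them. *Draxin*, a secreted inhibitor named after its values were seen, was the only gene of the list called under any alternative. It was at 1.23, 1.35 and 1.28 FPKM in wildtype and at 2.18, 2.37 and 1.06 FPKM in *Pou4f3(Δ/+)*, with a difference of 0.55 (SE 0.28, edgeR adjusted p = 0.653). Its edgeR adjusted p was 0.0465 without *Pou4f3(Δ/+)* replicate 3, where the difference was 0.84, and the adjusted p reached 1.00 among the other alternatives. The difference turned to -0.29 without *Pou4f3(Δ/+)* replicates 1 and 2. These libraries had the higher summed FPKM of B lineage and T cell markers, and the part of those cells in the *Draxin* values was not tested.

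**Figure D4:**
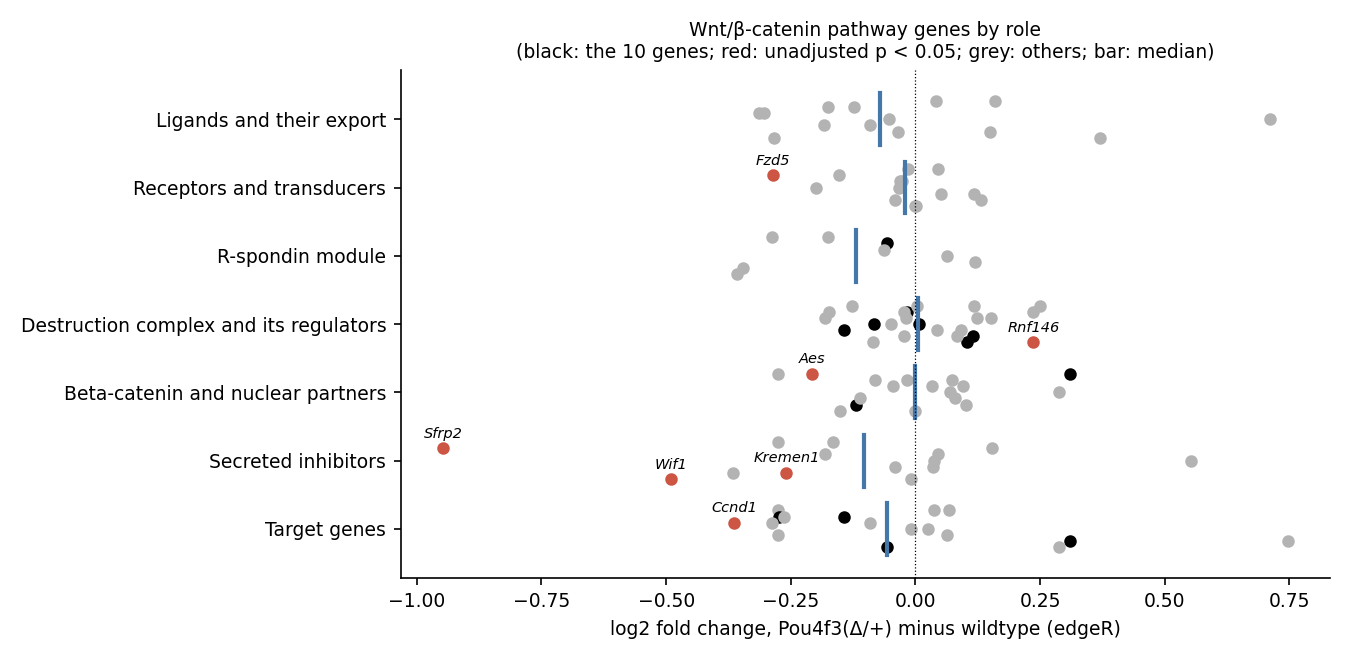
Log2 fold change of *Pou4f3(Δ/+)* against wildtype from edgeR (horizontal axis) for each tested gene of the Wnt/β-catenin list by role (rows), in black for the 10 genes, red and named for an unadjusted p under 0.05, and grey for the rest, with a bar at the median of each role. Role medians lie between -0.12 and 0.00, and the 10 genes lie between -0.27 and 0.31.

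**Figure D5:**
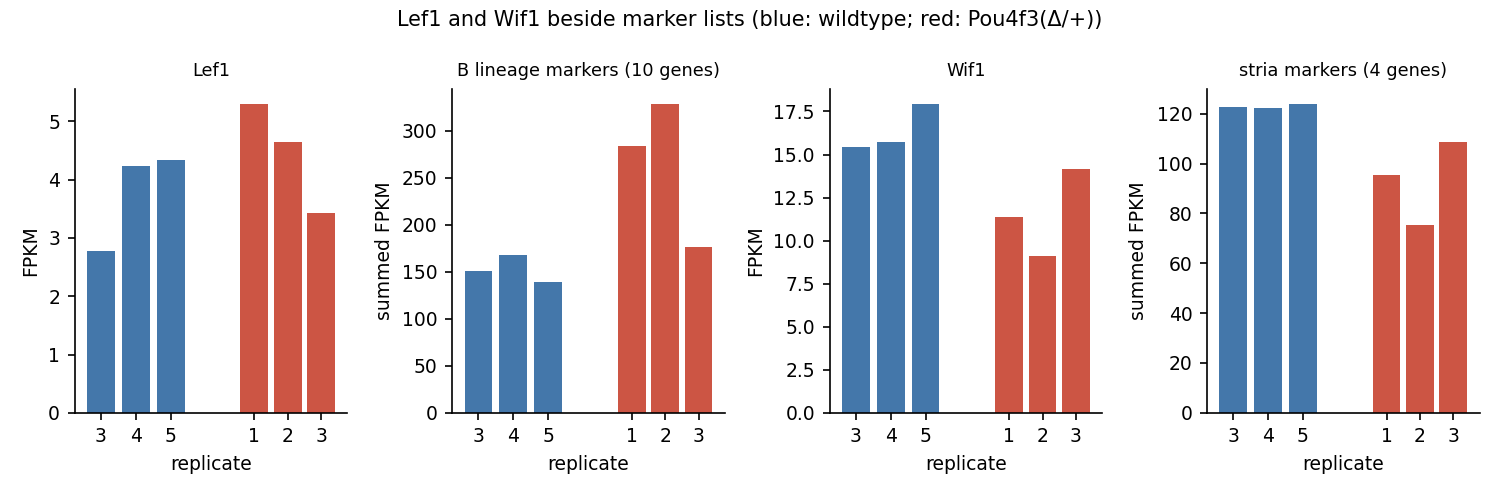
FPKM of *Lef1* and *Wif1* in each sample (bars from 0, by replicate number, wildtype left in blue and *Pou4f3(Δ/+)* right in red), each beside the summed FPKM of a marker list. *Pou4f3(Δ/+)* replicates 1 and 2 are the highest for *Lef1* and for the B lineage markers, and the 3 *Pou4f3(Δ/+)* samples are below wildtype for *Wif1* and for the summed stria markers.

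Summed counts were 14295069 to 17696784 per sample. Hair cell markers were present in every sample, with a summed FPKM over 6 genes of 45.8 to 46.3 for wildtype, 39.7 to 48.0 for *Pou4f3(Δ/+)* and none listed at 0, so the defining cells of the labelled tissue were detected. *Pou4f3* itself had 68, 72 and 88 counts in wildtype and 66, 97 and 52 in *Pou4f3(Δ/+)*, which overlap and do not tell the alleles apart, so these counts check no genotype. Red cell markers were higher in 5 of 5 in *Pou4f3(Δ/+)*, by the fitted difference, and replicates 1 and 2 had the highest summed FPKM of these markers, though not of *Epb42* alone.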

How the data were processed

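Total RNA of 6 cochlear samples was sequenced with paired-end reads. For each transcript the authors deposited an expected count (an estimate, not normalized) and an FPKM value. The aligner, counting program and annotation are not given in the sources used here. The submitters' processing notes list mm8 and DESeq2, but the lengths listed for 68 of the 71 transcripts equal GRCm38 spans in GENCODE M21, from which coordinates were taken. FPKM was within 1% of the value recomputed from count, spliced length and depth for 69 of 81 values over 200 counts, the exceptions being 1 form each of *Apc* and *Btrc*, and 10 annotated forms of *Btrc* and *Gsk3b* were not analysed here.

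Counts were rounded (82.2% of those above 0 were not whole), summed per symbol and tested with edgeR 4.0.16 in R 4.3.3 (filterByExpr, TMM, quasi-likelihood test, no covariates), after tests on simulated data. SE is the log2 fold change over the root of the F statistic. DESeq2 1.42.0 and limma 3.58.1 were alternatives. Tables were built with Python 3.11.15.

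The members and lists were chosen with earlier results of these data known. Named were the 10 genes, every *Axin1* transcript, the leading transcript of each other gene and those over 2-fold apart without overlap at 1 FPKM or more, up to 3 other pathway genes per role with the smallest p under 0.05, and the 5 genes most like *Axin1* and *Lef1*.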

Additional observations from a re-analysis of the deposited data

How the results depend on the processing

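No call among the 9 genes other than *Axin1* or their transcripts was made under any alternative: DESeq2, its size factors in edgeR, no filter, a mean CPM of 1, limma-trend on log2(FPKM + 0.1, 0.5 or 1), a threshold of 0.1, each sample left out, or both *Pou4f3(Δ/+)* replicates 1 and 2 left out. Leaving out each sample gave 0 to 1 called pathway genes, the 1 being *Draxin* without *Pou4f3(Δ/+)* replicate 3, when 193 of all genes were called. On leaving out *Pou4f3(Δ/+)* replicates 1 and 2, 1 such sample was assumed to vary like the wildtype group. The share of ENSMUST00000118904 in *Axin1* differed by -21.8 percentage points on FPKM, by -22.8 to -20.99 with each sample left out, and by -18.8 on expected counts, which do not divide by transcript length. Over the same omissions that of ENSMUST00000163421 was higher by 17.1 to 22.2 and that of ENSMUST00000074370 by 0.461 to 4.39 points. The log2 difference changed sign for *Apc*, to 0.0420 without wildtype replicate 4, to 0.0687 without *Pou4f3(Δ/+)* replicate 2 (-0.0628 to 0.0687 with each sample left out) and to 0.0689 without replicates 1 and 2, and for *Lef1*, to -0.00556 without replicates 1 and 2. That of *Axin1*, 0.01 on all samples, also turned, to -0.01 without *Pou4f3(Δ/+)* replicate 1, to -0.02 without replicates 1 and 2 and to -0.00 on each FPKM scale. Sizes that kept their sign also moved by over 1.5 times, for example *Gsk3b* to -0.01 without wildtype replicate 5, *Csnk1a1* to 0.06 and *Lef1* to 0.09 without wildtype replicate 3, *Btrc* to 0.05 without *Pou4f3(Δ/+)* replicate 3, *Ctnnb1* to -0.06, *Lgr5* to -0.03 and *Axin2* to -0.08 without *Pou4f3(Δ/+)* replicate 2, and *Axin2* to -0.03 on log2(FPKM + 0.5). The cause was not tested. No paired analysis was run, because the sources used here give no litter or pair for each sample and do not say that replicate numbers mark pairs.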
